A study of Mus musculus with 24 samples.

Results

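Dentate granule cells are the principal neurons of the dentate gyrus, the first station of the hippocampal circuit. Their 8 marker genes Prox1, C1ql2, Stxbp6, Trpc6, Calb1, Dsp, Lct and Tdo2 were chosen by symbol from the 49568 gene symbols counted in whole hippocampus, and all 8 passed the filter on low counts, which kept 18482 genes. The libraries came from experimentally naive male mice on a C57-Bl/6 background (C57-Bl/6J in the study's methods, backcrossed from C57-Bl/6n), 12 weeks old by the labels, that were either wild type (WT) or homozygous for a mutation that makes the mitogen- and stress-activated kinase MSK1 kinase-dead (MSK1 KD). The mice lived in standard housing (SH) or, from before birth, in an enriched environment (EE) with a running wheel and toys. WT and KD mice were bred as separate lines and not as littermates, so the mutation and the line cannot be told apart, and every cell of a KD mouse carries the mutation. Of 24 libraries, 6 in each group, the 22 other than 33B and 34B were used, namely 6 WT SH, 5 WT EE, 6 KD SH and 5 KD EE. The labels do not say from which animal each library came, so p-values measure the spread between these libraries.

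Granule cells receive the cortical input to the hippocampus and send mossy fibers to CA3 pyramidal cells and to the mossy cells of the hilus. They are among the few neurons that are also born in the adult, and running and enrichment are known to raise the number of the newborn ones. Mature granule cells keep the homeobox factor Prox1 and the calcium buffer calbindin, and they express several genes that are better known from other organs, such as desmoplakin and lactase.

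Each library held 8911999 to 56752074 counts on genes (median 30265878), and levels are given as counts scaled to a common library size (CPM), in which a floor of 3 counts stood for 0.0529 to 0.337. Library 12 (WT SH) had a summed level of 574 CPM over 8 thalamus markers, against 169 to 275 CPM in the 21 others, of which library 5 (KD SH) had the highest. Library 14 (WT SH) had 354 CPM over 8 striatum markers, against 173 to 225 CPM in the others. The summed level of 12 choroid plexus markers ran from 223 to 8329 CPM, and its group medians were 285 CPM in WT SH, 363 CPM in KD SH, 5943 CPM in WT EE and 3408 CPM in KD EE. The study kept 17 of the 22 libraries and removed the KD SH library 2, the KD EE library 9, the WT SH library 12 and the WT EE libraries 31B and 35A for poor intragroup correlation. Of WT EE this left only 16, 17 and 33A, with choroid plexus sums of 7644, 5943 and 8026 CPM, against 262 and 230 CPM in 31B and 35A. Rps6ka5, which encodes MSK1, was at 24.9 ± 2.21 CPM (SD, n = 6) in WT SH and 25.4 ± 2.18 CPM (SD, n = 6) in KD SH, a level that does not check the genotype because a point mutation leaves the transcript.

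Other granule cell genes were present too. A list of 10 such genes, among them C1ql3 (a relative of C1ql2) and Glis3 (a zinc finger factor), summed to between 733 and 946 CPM in the 22 libraries, and 6 markers of immature granule cells, among them Dcx and Sox11, to between 54.1 and 90.4 CPM. The tissue held the neighbouring fields as well, with 666 to 903 CPM over 6 CA1 markers, 107 to 158 CPM over 4 CA2 markers, 311 to 409 CPM over 5 CA3 markers, 40.2 to 74.5 CPM over 4 mossy cell markers and 755 to 957 CPM over 8 interneuron markers. In such bulk tissue, fewer granule cells and less RNA per granule cell cannot be told apart.

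The promoters of Dsp, Lct and Trpc6 are shown because the level of Lct varied with those of Dsp and Trpc6 from library to library (values are given with the correlations). Each is the 250 bases before the RefSeq start on GRCm38.p6, 5′ to 3′ on the gene's strand, and capitals mark the letters TGACG, the half-site of the cAMP response element to which the MSK1 substrate CREB binds.
Dsp, chr13:38151044-38151293, plus strand: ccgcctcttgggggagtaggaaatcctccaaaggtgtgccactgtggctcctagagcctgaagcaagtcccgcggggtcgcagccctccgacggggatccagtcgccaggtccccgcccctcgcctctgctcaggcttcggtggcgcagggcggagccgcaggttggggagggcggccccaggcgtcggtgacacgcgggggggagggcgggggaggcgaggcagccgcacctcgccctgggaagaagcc
Lct, chr1:128328319-128328568, minus strand: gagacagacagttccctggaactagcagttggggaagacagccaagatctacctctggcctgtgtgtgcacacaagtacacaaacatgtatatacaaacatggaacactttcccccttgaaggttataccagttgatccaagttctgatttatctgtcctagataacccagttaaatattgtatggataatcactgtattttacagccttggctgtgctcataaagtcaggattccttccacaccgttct
Trpc6, chr9:8543892-8544141, plus strand: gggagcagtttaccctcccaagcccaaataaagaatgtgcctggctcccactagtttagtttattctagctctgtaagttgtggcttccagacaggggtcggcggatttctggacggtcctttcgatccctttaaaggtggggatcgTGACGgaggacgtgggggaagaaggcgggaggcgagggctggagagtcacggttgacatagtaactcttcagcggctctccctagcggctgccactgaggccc

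The windows differed in composition, with 72.4% G and C for Dsp, 42.8% for Lct and 56.4% for Trpc6, against a median of 52.4% over 32851 mouse promoters. TGACG was searched on both strands and stood in 17.8% of all promoters. Of the 8 windows found for 7 of the genes (Prox1 has a pair, and Calb1 is not in the table), it stood only in that of Trpc6, 103 bases before the start. The full element TGACGTCA, which contains the half-site, stood in 1.55% of all promoters and in none of these 8 windows, and the E-box CAGATG stood in 14.4% of all and in 1 window of Prox1.

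Per length of exon, the order of the levels was C1ql2, Calb1, Stxbp6, Prox1, Lct, Dsp, Trpc6 and Tdo2. The median level over the 22 libraries was 47.2 CPM per kb of exon for C1ql2, 21.7 for Calb1, 20.4 for Stxbp6, 12.7 for Prox1, 7.19 for Lct, 5.39 for Dsp, 5.21 for Trpc6 and 1.65 for Tdo2. Neighbours in this order were mostly held apart within every library: Stxbp6 was above Prox1, Prox1 above Lct, Lct above Dsp and Trpc6 above Tdo2 in 22 of 22 libraries, and C1ql2 was above Calb1 in 21 of 22. Calb1 was above Stxbp6 in 15 of 22 libraries, with a ratio between 0.915 and 1.304, and Dsp above Trpc6 in 13 of 22, with a ratio between 0.775 and 1.60, so these neighbours were not separated beyond the spread between libraries.

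**Figure D1:**
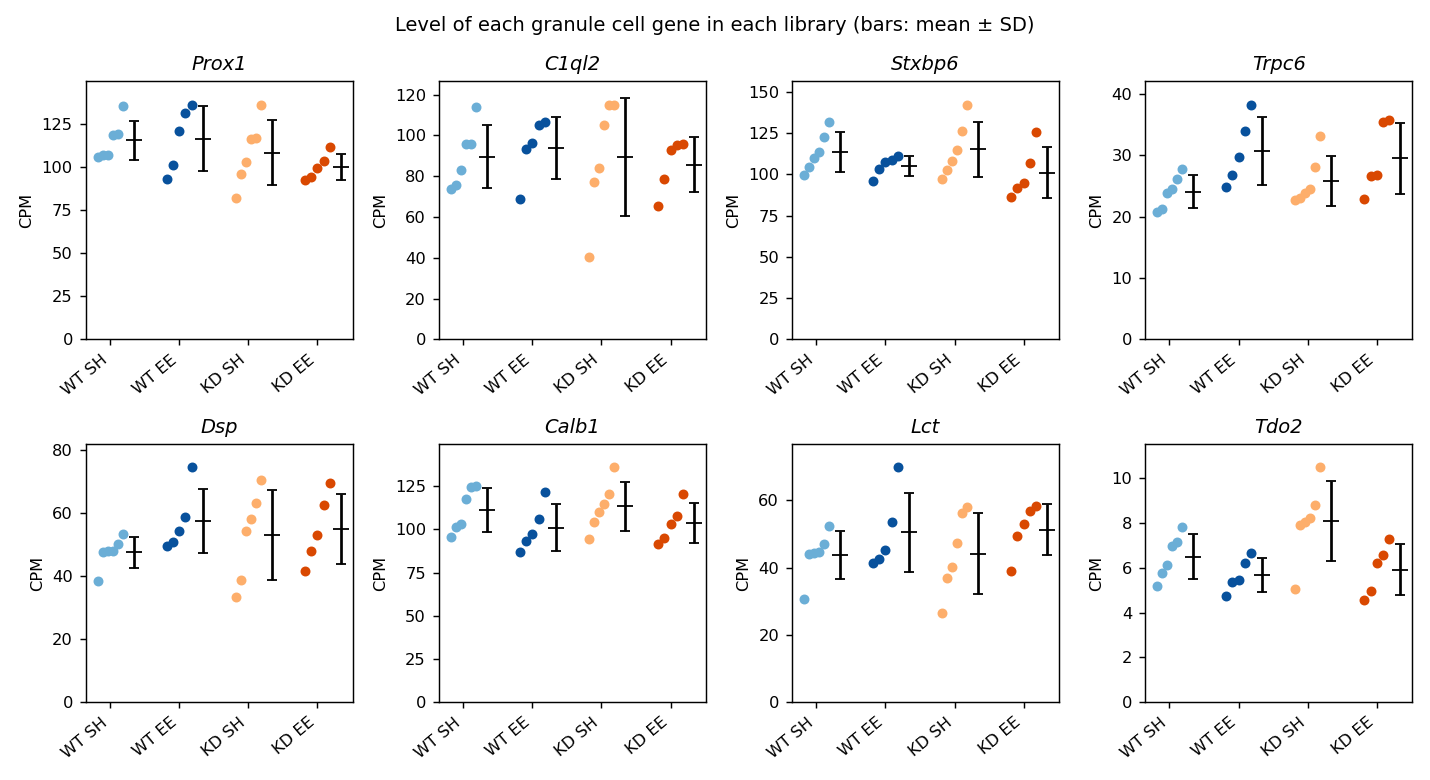
Level of each of the 8 genes (CPM, axis from 0) in each library of WT SH, WT EE, KD SH and KD EE. Points are libraries, and the bars beside them are the mean ± SD. The groups overlap for every gene, and C1ql2 has the widest range, from 40.3 to 115 CPM in KD SH.

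Prox1 encodes the transcription factor that specifies granule cell identity and maintains it in the adult. The gene lies on the minus strand of chromosome 1 at 190118035-190170714 (GRCm38, GENCODE M21). WT SH libraries held Prox1 at 106 to 135 CPM (median 113 CPM), and the WT EE libraries at 92.9, 101, 121, 131 and 136 CPM. In KD SH, Prox1 was at 81.8 to 136 CPM (median 110 CPM), and KD EE libraries had 92.4, 94.01, 99.4, 103 and 112 CPM. KD EE was the narrowest group, and 3 of the 5 WT EE libraries lay above all KD EE libraries. WT EE over KD EE gave a log2 fold change of 0.22 ± 0.112 (SE), with a 95% interval of −0.0099 to 0.45, and was not called. This value became 0.05 in the 17 libraries and −0.03 without the lettered libraries, those whose code ends in a letter, all of which are EE. Of WT EE, the first setting holds only libraries 16, 17 and 33A, and the other only 16 and 17. EE against SH gave 0.01 ± 0.106 in WT and −0.12 ± 0.107 in KD on the same scale. An antisense gene, Prox1os, shares exonic bases with Prox1 and had a median of 3.46 CPM, and the counting did not use strand.

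C1ql2 encodes a secreted C1q-like protein of mossy fiber terminals, where it helps to place kainate receptors at the synapse with CA3. The gene is on the plus strand of chromosome 1 at 120340582-120343174. Levels in WT SH were 73.6 to 114 CPM (median 89.4 CPM), and those in WT EE were 68.7, 93.5, 96.1, 105 and 107 CPM. KD SH libraries held 40.3 to 115 CPM (median 94.5 CPM), and KD EE libraries had 65.4, 78.9, 92.9, 95.5 and 96.1 CPM. The lowest library was 5, with 40.3 CPM from 742 counts, and the next lowest of its group had 77.0 CPM. Within the groups, the SD of the log2 level was 0.368, while counting alone would give 0.0305, and 99.9% of 1000 genes of like level had a smaller SD. The difference between EE and SH was 0.07 ± 0.181 in WT and −0.07 ± 0.183 in KD on the log2 scale, with 95% intervals of −0.31 to 0.44 and −0.45 to 0.31. A rise of 0.38, the size needed for a call, lies within the interval in WT, and a fall of that size within the interval in KD.

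Stxbp6 encodes amisyn, a protein that binds syntaxin and regulates the fusion of vesicles with the membrane. It lies on the minus strand of chromosome 12 at 44852484-45074709. WT SH libraries held Stxbp6 at 99.4 to 132 CPM (median 112 CPM), and the WT EE libraries at 95.7, 103, 108, 109 and 111 CPM. In KD SH, Stxbp6 was at 97.5 to 142 CPM (median 112 CPM), and KD EE libraries had 86.6, 91.8, 95.1, 107 and 126 CPM. The EE values lay toward the lower end in both genotypes, with 3 of 5 KD EE libraries below every KD SH library. On the log2 scale EE over SH was −0.11 ± 0.0943 in WT and −0.20 ± 0.0952 in KD, with adjusted p of 0.817 and 0.520 in edgeR. With the score of the choroid plexus list as a covariate, the value in KD became −0.12.

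Trpc6 encodes a cation channel that opens downstream of receptors coupled to phospholipase C and lets calcium into the cell. The gene is on the plus strand of chromosome 9 at 8544142-8680741. Levels in WT SH were 20.8 to 27.7 CPM (median 24.2 CPM), and those in WT EE were 24.8, 26.7, 29.7, 34 and 38.2 CPM. KD SH libraries held 22.6 to 33.1 CPM (median 24.2 CPM), and KD EE libraries had 22.8, 26.7, 26.7, 35.4 and 35.7 CPM. Every WT EE library was above the WT SH mean, and 3 of 5 were above every WT SH library, while KD EE and KD SH overlapped more widely. As log2 fold changes, EE over SH gave 0.35 ± 0.125 in WT, with an adjusted p of 0.425 in edgeR, and 0.18 ± 0.127 in KD, with an adjusted p of 0.662. For WT alone, the exact permutation test of the log2 levels, two-sided and 1 of 32 such tests with no adjustment, gave p = 0.028. The highest WT EE libraries for Trpc6 were 35A and 31B, the pair with a low choroid plexus level in that group (230 and 262 CPM), and both were removed by the study. The highest KD EE libraries were 9 and 36A, with the lowest and the highest choroid plexus level of that group (466 and 8329 CPM). Over the 17 libraries the WT value was 0.13 ± 0.130, with an adjusted p of 0.730. With the choroid plexus score as a covariate in the 22 libraries it was 0.45 ± 0.113, with an adjusted p of 0.299, and the range of its adjusted p over 12 alternatives was 0.294 to 0.737.

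Calb1 encodes calbindin, a buffer of intracellular calcium, which CA1 pyramidal cells and some interneurons also express. It lies on the plus strand of chromosome 4 at 15881264-15908064. WT SH libraries held Calb1 at 95.5 to 125 CPM (median 111 CPM), and the WT EE libraries at 87.2, 93.1, 97.3, 106 and 122 CPM. In KD SH, Calb1 was at 94.5 to 136 CPM (median 113 CPM), and KD EE libraries had 91.8, 95.3, 103, 108 and 121 CPM. All groups overlapped, and in each genotype 4 of 5 EE libraries lay below the SH mean. Between EE and SH, the log2 fold change was −0.14 ± 0.0950 in WT and −0.13 ± 0.0957 in KD, with adjusted p of 0.748 and 0.663 in edgeR. Over the 17 libraries the WT value was −0.29 ± 0.110, with an adjusted p of 0.204 in edgeR.

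Dsp encodes desmoplakin, which ties desmosomes to intermediate filaments in epithelia and heart. The gene is on the plus strand of chromosome 13 at 38151294-38198577. In WT SH, Dsp was at 38.6 to 53.3 CPM (median 48.1 CPM), and the WT EE libraries at 49.7, 51.0, 54.3, 58.7 and 74.6 CPM. The KD SH levels were 33.4 to 70.4 CPM (median 56.3 CPM), and KD EE libraries had 41.8, 48.1, 53.1, 62.8 and 69.6 CPM. Every WT EE library was above the WT SH mean of 47.7 CPM, and the KD groups covered nearly the same range. The difference between EE and SH was 0.28 ± 0.154 in WT on the log2 scale, with an adjusted p of 0.654 in edgeR, and 0.05 ± 0.155 in KD, with an adjusted p of 0.943. The exact permutation test of the WT libraries alone, two-sided and unadjusted, gave p = 0.028. Over the 17 libraries the WT value was 0.06 ± 0.177. A list of 8 other genes held desmosome genes, among them the plaque proteins Jup and Pkp2, and the keratins Krt8 and Krt18. Of these 8, 0 passed the test in either genotype in the 22 libraries, and their median log2 fold change was 0.21 in WT and 0.12 in KD. Higher levels with EE had an unadjusted p under 0.05 for 4 of them in WT and for 3 in KD. Over all genes the share was 8.65% in WT and 9.63% in KD, in either direction. In the 17 libraries 3 of the 8 were called in each genotype, against 3.55% of all genes in WT and 1.74% in KD. These were Perp (a protein of desmosomes and a p53 target), Krt8 and Krt18 (keratins of simple epithelia). In WT EE, the summed level of this list of 8 was 421, 383 and 426 CPM in libraries 16, 17 and 33A. In 31B and 35A the sum was 409 and 429 CPM, so the sums of these libraries overlapped. The mean log2 level of the 8, in which genes of low level weigh as much as the others, was 3.94, 3.82 and 3.93 in 16, 17 and 33A, which had high choroid plexus levels. It was 2.53 and 2.60 in 31B and 35A, which had low ones and the highest Dsp levels of WT EE. KD EE did not share this order of Dsp. Its highest Dsp levels, 69.6 and 62.8 CPM, were in 32A and 36A, with choroid plexus sums of 4557 and 8329 CPM. Library 9, with the lowest sum of KD EE at 466 CPM, had Dsp at 53.1 CPM. The part of choroid plexus tissue was not tested. A gene model on the other strand, Gm10129, shares exonic bases with Dsp and had 0 to 4 counts.

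Lct encodes lactase, the enzyme that splits milk sugar at the brush border of the gut. It lies on the minus strand of chromosome 1 at 128284756-128328318. In WT SH, Lct was at 30.7 to 52.2 CPM (median 44.4 CPM), and the WT EE libraries at 41.5, 42.5, 45.1, 53.5 and 69.9 CPM. The KD SH levels were 26.5 to 57.9 CPM (median 43.8 CPM), and KD EE libraries had 39.0, 49.3, 53.1, 56.9 and 58.3 CPM. The lowest values were those of library 5 in KD SH and library 12 in WT SH, and the highest was that of library 35A in WT EE. EE over SH was 0.21 ± 0.165 on the log2 scale in WT and 0.20 ± 0.167 in KD, with adjusted p of 0.799 and 0.701 in edgeR. The same values in the 17 libraries were −0.11 ± 0.166 and 0.13 ± 0.153, so that the direction in WT turned.

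Tdo2 encodes tryptophan 2,3-dioxygenase, which opens the kynurenine pathway and in the body is mainly a liver enzyme. The gene is on the minus strand of chromosome 3 at 81957090-81976202 and had the lowest level of the 8 genes, with counts between 59 and 473. In WT SH, Tdo2 was at 5.17 to 7.83 CPM (median 6.55 CPM), and the WT EE libraries at 4.75, 5.37, 5.46, 6.21 and 6.68 CPM. The 6 KD SH libraries were at 5.05, 7.94, 8.07, 8.22, 8.82 and 10.5 CPM, and the 5 KD EE libraries at 4.56, 4.98, 6.24, 6.57 and 7.27 CPM. In KD, all SH libraries other than 5 lay above every EE library, and library 5 lay among the EE libraries. In KD, EE over SH gave a log2 fold change of −0.48 ± 0.154, with an adjusted p of 0.453 in edgeR, and in WT −0.20 ± 0.151, with an adjusted p of 0.785. The exact permutation test of the KD libraries alone, two-sided and unadjusted, gave p = 0.058. Without library 5, the value in KD was −0.58, and over 12 alternatives its adjusted p ranged from 0.140 to 0.844. WT SH over KD SH gave −0.32 ± 0.142, with an adjusted p of 0.811 in edgeR. The interaction of genotype and housing was 0.28 ± 0.215, with a 95% interval of −0.16 to 0.72, so the change with housing was not shown to differ between the genotypes.

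The question of these comparisons is whether lifelong enrichment changed hippocampal gene expression and whether the kinase activity of MSK1 was needed for it. A call needed both an adjusted p no higher than 0.05 in edgeR's quasi-likelihood test, over the 18482 genes tested, and a log2 fold change of at least 0.38 in either direction. In WT EE against WT SH, 0 of the 8 genes were called, and the share of all genes called was 0%. At an unadjusted p under 0.05 there was 1 of the 8 (Trpc6), against 8.65% of all genes. In KD EE against KD SH, 0 of 8 were called against 0% of all genes, and 1 (Tdo2) had an unadjusted p under 0.05 against 9.63% of all genes. In WT SH against KD SH, 0 of 8 were called against 0% of all genes, and 1 (Tdo2) had an unadjusted p under 0.05 against 5.76%. In WT EE against KD EE and in the interaction, 0 of 8 were called against 0% of all genes, and 0 had an unadjusted p under 0.05, against 2.61% and 2.04% of all genes. DESeq2 also called 0 of the 8 genes in each of these 5 comparisons. The libraries of each group served in several of these comparisons, which are therefore not independent of each other.

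In the 17 libraries that the study kept, 3.55% of 18701 genes were called in WT EE against WT SH and 1.74% in KD EE against KD SH, and again 0 of the 8 genes. For EE over SH in the 22 libraries, the median of the 8 log2 fold changes was 0.04 in WT and −0.09 in KD, against medians of 0.01 and 0.0028 over all genes tested. Over the 17 libraries it was −0.13 in both genotypes. Of the 12 choroid plexus markers, a list that includes Ttr and Kl, 0 were called in either genotype in the 22 libraries and 12 of 12 in both in the 17. At an unadjusted p under 0.05, 11 of 12 were higher with EE in WT and 6 of 12 in KD, with a median log2 fold change of 2.54 and 2.03.

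With the score of the choroid plexus list as a covariate, 0 of the 8 genes were called, and several log2 fold changes of EE over SH moved by more than 1.5 times. Lct went from 0.21 to 0.33 ± 0.150 in WT, with an adjusted p of 0.617 in edgeR, and from 0.20 to 0.40 ± 0.161 in KD, with an adjusted p of 0.305. Trpc6 went from 0.18 to 0.33 ± 0.122 in KD, with an adjusted p of 0.283. Values moved toward 0 for Calb1, to −0.08 in WT and −0.04 in KD, and for Stxbp6, to −0.05 in WT and −0.12 in KD. In KD, Prox1 moved to −0.01, Dsp to 0.12 and C1ql2 to −0.11, and in WT C1ql2 moved to 0.04 and Prox1 to 0.08. For Dsp in WT the value was 0.32, and for Tdo2 it was −0.14 in WT and −0.42 in KD, each within 1.5 times of the value without the covariate.

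The average of the housing difference over both genotypes was added after the data were seen. It called 0.146% of all genes and 0 of the 8, while 3 of the 8 had an unadjusted p under 0.05, against 16.1% of all genes. On the log2 scale, EE over SH was −0.34 ± 0.108 for Tdo2, with an adjusted p of 0.114 in edgeR, −0.15 ± 0.0670 for Stxbp6, with an adjusted p of 0.253, and 0.26 ± 0.0890 for Trpc6, with an adjusted p of 0.133. The call for Tdo2 changed with libraries 5 and 12, those with the highest thalamus levels. Without libraries 5 and 12 the value was −0.41 ± 0.0925 with an adjusted p of 0.046, and with the score of the thalamus list as a covariate −0.41 ± 0.103 with an adjusted p of 0.035, both of which are calls, and over all 11 alternatives the adjusted p ranged from 0.035 to 0.358. Both of these alternatives were also chosen after the data were seen. For Trpc6, the value fell to 0.10 ± 0.0882 in the 17 libraries, with an adjusted p of 0.629. With the choroid plexus score as a covariate it was 0.39 ± 0.0890, with an adjusted p of 0.062, and that of Lct went from 0.20 to 0.37 ± 0.117, with an adjusted p of 0.143.

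**Figure D2:**
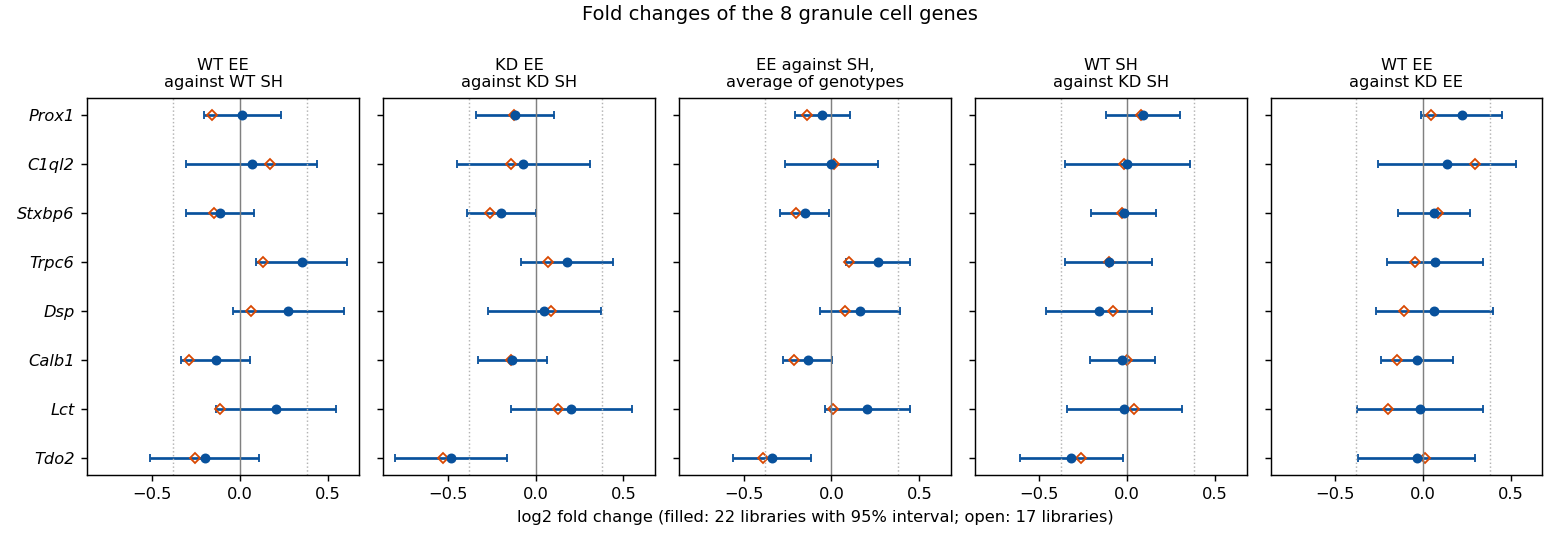
Log2 fold change (horizontal axis) of the 8 genes in the 22 libraries (filled points, bars are 95% intervals) and in the 17 libraries the study kept (open diamonds), for 5 comparisons. Dotted lines mark 0.38 in either direction. Only the intervals of Trpc6 in WT EE against WT SH, of Tdo2 in KD EE against KD SH and in WT SH against KD SH, and of Tdo2, Stxbp6 and Trpc6 in the average lie away from 0.

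Of the 10 other granule cell genes, 0 were called by edgeR. For EE over SH, members of the list lay on both sides of 0, and their median was 0.05 in WT and −0.04 in KD on the log2 scale. C1ql3 was at 0.04 ± 0.110 in WT and −0.04 ± 0.111 in KD, and Glis3 at 0.09 ± 0.111 and −0.10 ± 0.114. At an unadjusted p under 0.05 there was 1 of the 10 in WT, against 8.65% of all genes, and 2 in KD, against 9.63%. These were Maml2 at 0.21 ± 0.0984 in WT, and Lrrtm4 at −0.28 ± 0.103 and Synpr at −0.23 ± 0.0645 in KD. The 6 immature granule cell genes had a median of −0.17 in WT and −0.14 in KD, and Dcx, the microtubule protein of newborn neurons, was at 31.3 ± 3.29 CPM (SD, n = 6) in WT SH and 29.7 ± 2.61 CPM (SD, n = 5) in WT EE. None of these 6 was called in the 22 libraries. For WT EE against WT SH in the 17, 1 (Neurod1) was called, against 3.55% of all genes. In the 22 libraries Neurod1, a proneural factor, was at −0.33 ± 0.111 in WT, with an adjusted p of 0.411 in edgeR. Of 16 genes related to the 8 by family, such as Prox2 and C1ql1, 14 were tested and 0 were called, with medians of −0.06 in WT and −0.08 in KD.

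The variation between libraries of 1 group was larger for these genes than for most. Within groups, the SD of the log2 level was 0.198 for Prox1, 0.296 for Dsp, 0.319 for Lct, 0.269 for Tdo2, 0.171 for Stxbp6, 0.228 for Trpc6 and 0.173 for Calb1, and the SD that counting alone would give was between 0.0268 and 0.111 over the 8 genes. The share of 1000 genes of like level with a smaller SD was 98.9% for Lct, 98.4% for Dsp, 94.1% for Prox1, 93.3% for Trpc6, 88.8% for Calb1, 87.9% for Stxbp6 and 77.7% for Tdo2. Counting error was largest for Tdo2, the gene of the lowest level.

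Some libraries were low or high in all 8 genes. Library 5 (KD SH) was below the gene's mean over the 22 libraries in 8 of 8 genes, was the lowest of its group in 6 and the lowest of all in 4, with a median difference of −0.39 on the log2 scale. Library 12 (WT SH) was also below the mean in 8 of 8, with a median difference of −0.22, and library 8 (KD EE) in 8 of 8, with −0.18. These were, for 5 and 12, the libraries with the highest summed thalamus markers, at 275 and 574 CPM, while library 8 had 187 CPM. Of the thalamus markers, Tcf7l2 reached at most 5.42 CPM in KD SH and Slc17a6 46.2 CPM, against 36.3 and 64.9 CPM in WT SH. Library 5 was also the lowest of the 22 over the CA1 markers, at 666 CPM, and over the CA2 markers, at 107 CPM. It was not the lowest over the CA3 markers, at 331 CPM, and over the immature granule cell markers it was the highest of the 22, at 90.4 CPM. Libraries 4, 3 (both KD SH) and 13 (WT SH) were above the mean in 8 of 8, with median differences of 0.31, 0.15 and 0.14 and thalamus sums of 169, 187 and 175 CPM. Library 35A (WT EE) was mixed, the highest of its group in 5 genes and the lowest in 2 (C1ql2 and Tdo2). The part of neighbouring tissue in these levels was not tested.

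**Figure D3:**
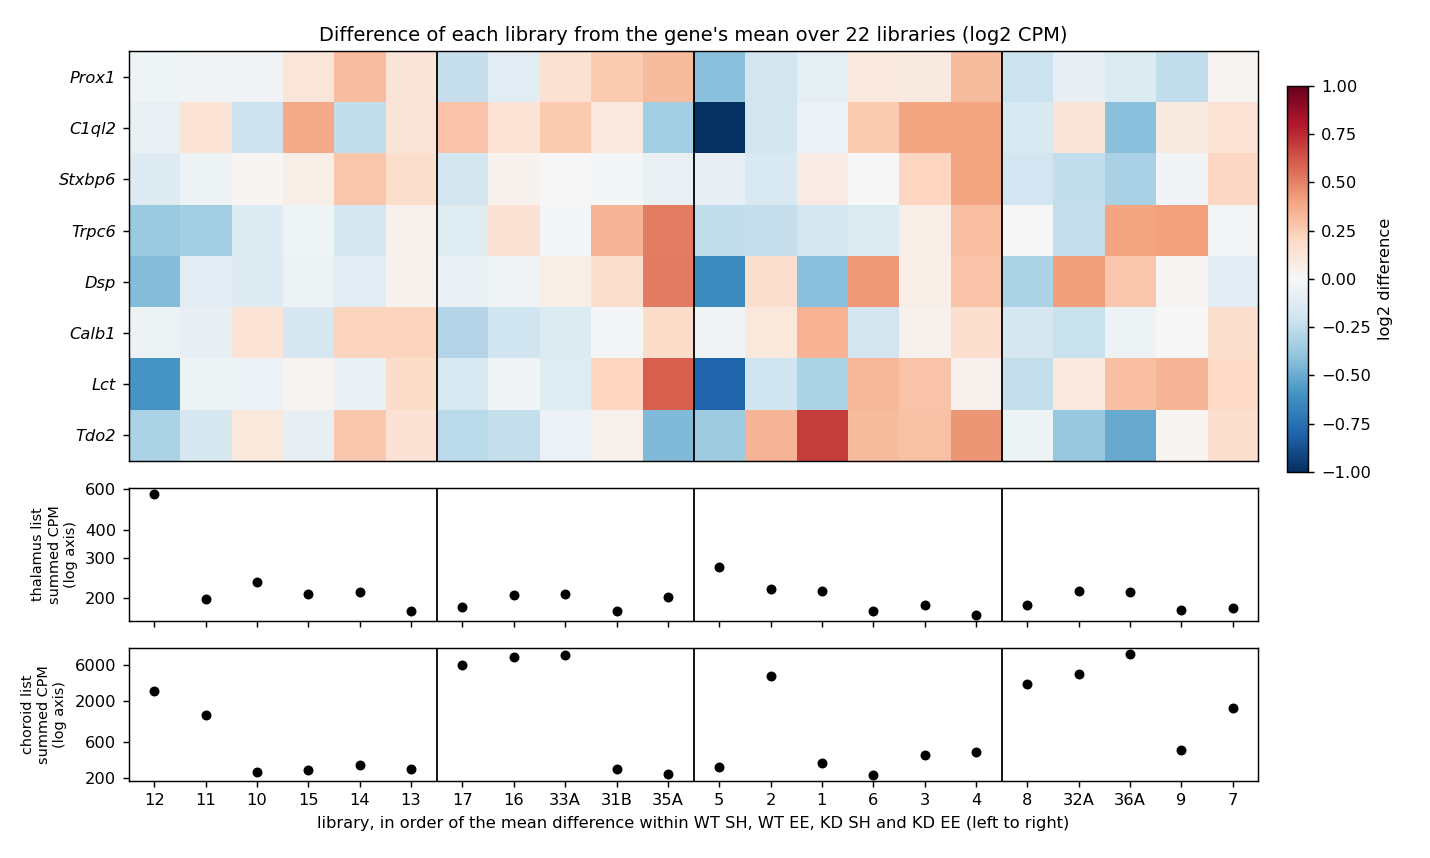
Difference of each library from each gene's mean over the 22 libraries (colour, log2 CPM, from −1 to 1), with the summed CPM of 8 thalamus markers and of 12 choroid plexus markers in the same libraries below (log axes). Libraries stand in order of their mean difference within WT SH, WT EE, KD SH and KD EE. Libraries 12 and 5 are low in all genes and have the highest thalamus levels, at 574 and 275 CPM.

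The levels of the 8 genes were compared with each other over the 22 libraries, as log2 CPM, in 28 pairs. Of these, 23 had a positive Pearson's r, with a median r of 0.36 over all 28, and 9 had an adjusted p of 0.05 or less in a permutation test with 1e+05 resamples, all 9 positive. With Spearman's rho, 5 pairs passed. With the group means removed, 10 pairs passed, while 5 passed in the 17 libraries and 5 without libraries 5 and 12. All values of a library share its depth and its dissection.

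Dsp and Lct had the closest relation, with r = 0.82 (permutation p = 2.0e-05, adjusted p = 0.00056) and rho = 0.73 (adjusted p = 0.0042). Without the libraries farthest from the median of Dsp, which were 35A and 5, r was 0.70. The pair kept r = 0.85 within the 12 SH libraries and r = 0.71 within the 10 EE libraries. Lct and Trpc6 had r = 0.70 (permutation p = 0.00029, adjusted p = 0.0041) and rho = 0.68 (adjusted p = 0.0081). For this pair r was 0.63 without 35A and 5, 0.58 within SH, 0.76 within EE and 0.45 in the 17 libraries. Dsp and Trpc6 had r = 0.52 (permutation p = 0.013, adjusted p = 0.045) and rho = 0.50 (adjusted p = 0.072). Without 35A and 5 their r was 0.37, with p = 0.11 in the permutation test. Leaving out the libraries farthest in Dsp also narrows its range, so whether this relation rests on those libraries cannot be told from this. With the group means removed, r was 0.43, with an adjusted p of 0.083 in the permutation test. The promoters of these 3 genes, printed above, ran from 42.8% to 72.4% G and C.

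Tdo2 and Stxbp6 formed another close pair, with r = 0.67 (permutation p = 0.00059, adjusted p = 0.0055) and rho = 0.67 (adjusted p = 0.0081). Without 36A and 1, r was 0.66, and it was 0.51 within SH and 0.73 within EE. Calb1 had r = 0.58 with Tdo2 (permutation p = 0.0047, adjusted p = 0.026, rho = 0.51) and r = 0.57 with Stxbp6 (permutation p = 0.0062, adjusted p = 0.029, rho = 0.55), with 0.48 and 0.58 after the farthest libraries were left out. Prox1 had r = 0.60 with Stxbp6 (permutation p = 0.0026, adjusted p = 0.018, rho = 0.61), and 0.55 without libraries 4 and 5. Its relations with Lct (r = 0.52, rho = 0.38) and Dsp (r = 0.51, rho = 0.43) had adjusted p of 0.045 and 0.049 in the permutation test. Without libraries 4 and 5 they fell to r = 0.38 and r = 0.31, with p = 0.097 and 0.18 in the permutation test. Leaving out the libraries farthest in Prox1 also narrows its range. These relations were therefore weaker without that pair, but whether they rest on it cannot be told from this. With the group means removed in all 22, r was 0.68 with Lct and 0.64 with Dsp (adjusted p = 0.0063 and 0.0076 in the permutation test). Within the 10 EE libraries, which hold neither 4 nor 5, r was 0.47 and 0.53, with permutation p = 0.17 and 0.12. Over the 22 libraries with group means removed, Prox1 followed the mean of the other 7 genes most closely, with r = 0.81. Calb1 and C1ql2 followed it least of the 8, with r = 0.41 and 0.42.

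For C1ql2, r had opposite signs in the housings with 4 of the 7 other genes and the same sign with 3. With Lct it was r = 0.80 within the 12 SH libraries and −0.55 within the 10 EE libraries, with Dsp 0.70 and −0.39, with Trpc6 0.53 and −0.63, and with Prox1 0.73 and −0.13. With Tdo2 it was 0.41 and 0.53, with Stxbp6 0.44 and 0.45, and with Calb1 −0.09 and −0.43. Library 5 was the lowest for C1ql2 among the SH libraries, and 36A and 35A, both high in Trpc6, were the lowest among the EE libraries. Over all 22 libraries, none of the 7 pairs of C1ql2 passed, with r between −0.20 and 0.42. The difference between the housings was not tested.

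**Figure D4:**
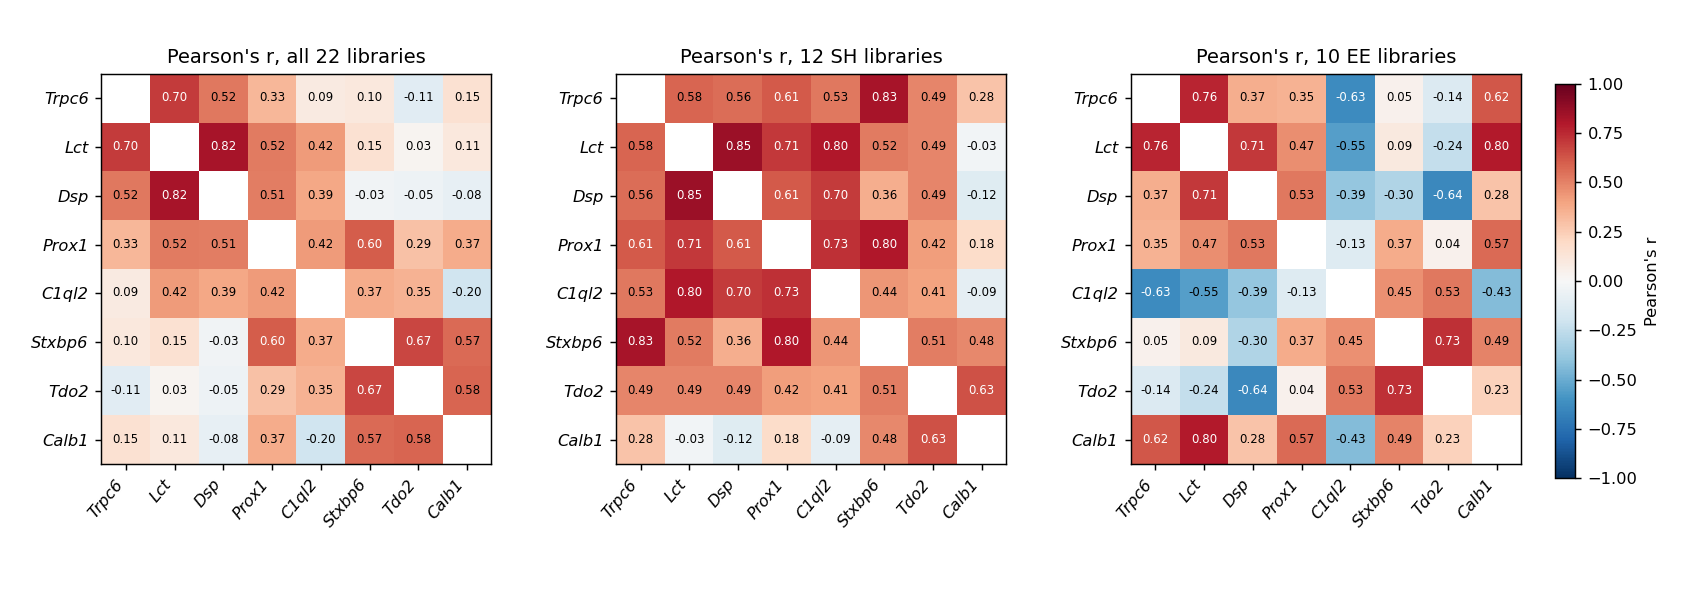
Pearson's r of log2 CPM for each pair of the 8 genes (colour and printed value, from −1 to 1) over all 22 libraries, the 12 SH libraries and the 10 EE libraries. Dsp with Lct has 0.82, 0.85 and 0.71 in the 3 panels, and C1ql2 with Lct has 0.42, 0.80 and −0.55.

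**Figure D5:**
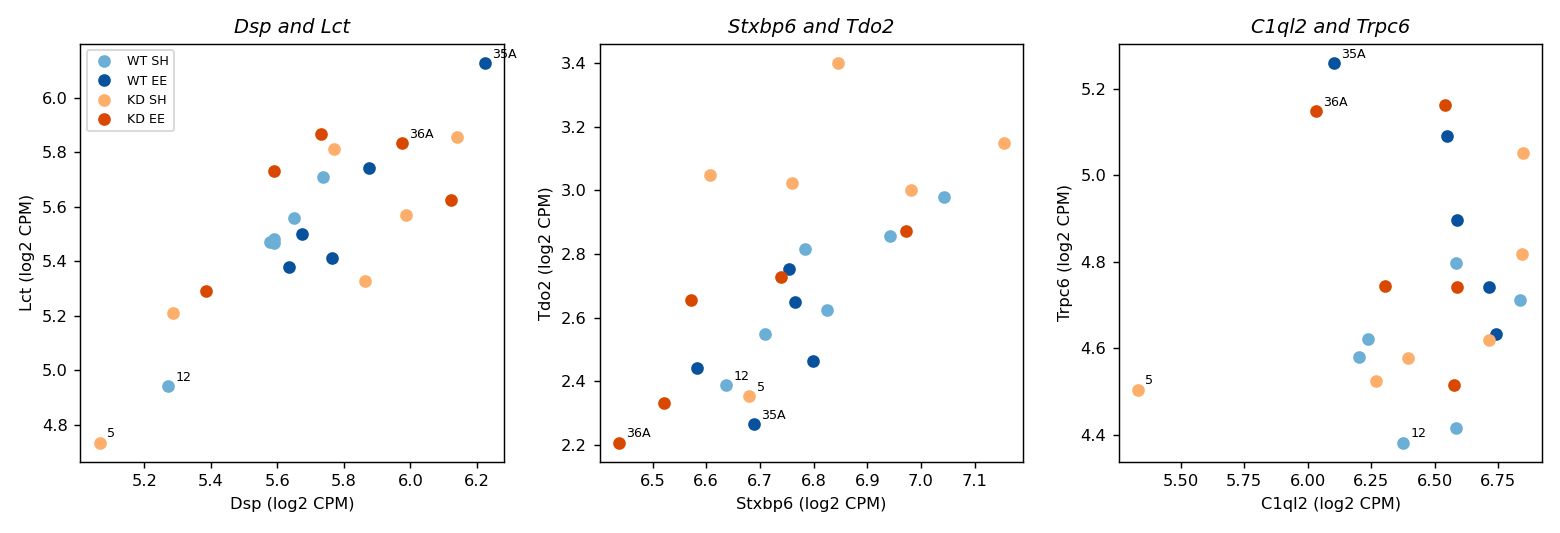
Levels of Dsp and Lct, of Stxbp6 and Tdo2, and of C1ql2 and Trpc6 in each of the 22 libraries (log2 CPM on both axes, coloured by group). Libraries 5, 12, 35A and 36A are named, and 5 and 12 are the lowest for Dsp and Lct, while 35A is the highest.

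The genes whose levels were most like the mean of the 8 were sought over all 18474 other genes tested, with group means removed. The closest was Doc2b, a calcium sensor of vesicle release, with r = 0.91 over 22 libraries and a level of 94.2 to 166 CPM. It was followed by Nmt1 (r = 0.89), Slitrk5 (0.87), Gng7 (0.87), Camk2a (0.86), Sertm1 (0.86), Ddn (0.85), Gria1 (0.85), Klhl2 (0.83) and Rfx3 (0.83). Camk2a (a kinase of the postsynaptic density) and Gria1 (an AMPA receptor subunit) are expressed by pyramidal cells as well as granule cells, and Rfx3 is in the list of other granule cell genes, where it ranked 10 of 18474. Of the 9 others in that list, Synpr (synaptoporin of mossy fiber vesicles) ranked 208 and Lrrtm4 was the last, at 11529 with r = −0.11. Over the list as a whole, 9 of 10 genes had a positive r, with a median of 0.54, against 49.7% of all 18474 genes, whose median was −0.0023.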

How the data were processed

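Hippocampal polyA RNA was sequenced as 24 libraries, and 22 were used here. Before deposit, the authors used Skewer for trimming and STAR 2.5 for alignment to GRCm38 (version per the labels' processing notes), and they deposited, for each library, raw counts of uniquely aligned fragments on 49568 gene symbols made with HTSeq without strand, together with 5 summary lines that were left out of library sizes and tests. These lines held between 10.0% and 14.2% of fragments in no gene and 3.77% to 4.41% ambiguous in the 22 libraries. Reads on bases that genes share are ambiguous and were not counted, which can lower Prox1 and Dsp. The deposited table of 17 libraries scaled by size factors was not used here.

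Counts were tested in R 4.3.3 with the quasi-likelihood test of edgeR 4.0.16, after filterByExpr by group and TMM scaling, in a single model with a mean for each group, and p-values were adjusted by Benjamini–Hochberg over all genes tested. CPM used the same factors, and log2 CPM a prior count of 2. DESeq2 1.42.0 was an alternative. Correlations used permutation tests, two-sided, in Python 3.11.15 with scipy 1.17.1, and figures matplotlib 3.10.9. The scripts were tested on simulated data. Gene positions are those of GENCODE M21, and promoters those of RefSeq, GRCm38.p6, in which 7 of the 8 genes were found. The 95% intervals of fold changes come from the edgeR fit and carry the spread between libraries, while the floor of 3 counts covers counting error only, since reads carry no molecular identifiers.

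The 8 genes and the marker lists were chosen with earlier results of these data known. The genes named are the 8, the first 2 of each list described with any called, and the 10 most alike by Pearson's r. Maml2, Synpr, Lrrtm4, Perp, Krt8, Krt18, Prox1os and Gm10129 were named after their values were seen. Alternatives were the 17 and 24 libraries, other scaling, filters and groups in the fit, DESeq2, plain differences with an exact permutation test, a choroid plexus covariate, no lettered libraries (all of which are EE), no libraries 12 and 14, other prior counts, and each library left out. A thalamus covariate, the fit without libraries 5 and 12, and the average over genotypes were added after the data were seen.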

Additional observations from a re-analysis of the deposited data

Results flagged for a closer look

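Lct in library 12 (WT SH) was at 30.7 CPM, and the nearest of the 5 other WT SH libraries was at 44.2 CPM, a gap of 0.625 of the range of the group. The limit for 6 libraries was 0.625, so this gap only just passed it, and that of Dsp in library 12, at 0.620, lay just under. No other library passed among 32 groups of a gene and a housing and genotype, and chance gives about 1 such group in 20. Library 12 also had the highest summed level of thalamus markers, 574 CPM, and their part in the low level of Lct was not tested.

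Library 33B (WT EE), which failed the study's quality control and is outside the comparisons, had Trpc6 at 32.4 CPM from 430 counts, above the highest WT SH library at 27.7 CPM in the scaling of all 24 libraries. The other 7 genes in 33B lay below the highest WT SH library. Calb1, at 85.3 CPM, also lay below the lowest WT SH library, at 95.5 CPM in the scaling of the 22 libraries.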

How the results depend on the processing

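Of 592 values of the 8 genes' log2 fold changes under the other settings, 540 kept their direction and their side of the threshold, 50 turned their direction and 2 passed the threshold. When single libraries were left out, 979 of 1056 values kept direction and side and 77 turned. In each of the 5 comparisons set at the start, 0 of the 8 genes were called under every setting tried. In the average of EE against SH, added after the data were seen, 1 gene (Tdo2) was called with the thalamus score as a covariate (−0.41) and 1 (Tdo2) without libraries 5 and 12 (−0.41), both settings chosen after the data were seen. The count of correlated pairs, 9 in the 22 libraries, was 5 in the 17 libraries and 5 without libraries 5 and 12, and ranged from 5 to 10 with each library left out. It was 5 without library 1, 7, 13 or 17. In all 24 libraries it was 9, but there the 0 to 4 counts of library 34B set the values. No paired analysis was possible because the library codes are unique and no replicate number is shared between groups. The reversed values were mostly near 0, and the cause of the turns was not tested. Of WT EE, the 17 libraries hold only 16, 17 and 33A, and the set without lettered libraries only 16 and 17. Depth limits Tdo2 most, with 59 counts in library 9. In the 17 libraries, the reversed values were Prox1 −0.16, Lct −0.11 in WT EE against WT SH, Lct 0.037 in WT SH against KD SH, Dsp −0.11, Tdo2 0.011, Trpc6 −0.045 in WT EE against KD EE, Prox1 −0.033, Dsp −0.026, Lct −0.24 in the interaction and C1ql2 0.016 in the average of EE against SH. In all 24 libraries, the reversed values were Lct −0.032 in the interaction. With the size factors of DESeq2 in edgeR, the reversed values were C1ql2 0.0010 in WT SH against KD SH and C1ql2 8.1e-05 in the average of EE against SH. In DESeq2, the reversed values were C1ql2 0.0057 in WT SH against KD SH, Lct −0.0086 in the interaction and C1ql2 0.0048 in the average of EE against SH. Without a filter, the reversed values were Calb1 0.0075 in the interaction. With at least 10 counts in every library, the reversed values were Calb1 0.00045 in the interaction and C1ql2 0.0016 in the average of EE against SH. With the choroid plexus score as a covariate, the reversed values were Lct −0.069 in the interaction and Prox1 0.037 in the average of EE against SH. Without the lettered libraries, the reversed values were Prox1 −0.24, Lct −0.012 in WT EE against WT SH, Dsp −0.17 in KD EE against KD SH, Prox1 −0.029, Stxbp6 −0.070, Trpc6 −0.11 in WT EE against KD EE, Prox1 −0.12, Lct −0.18, Stxbp6 −0.050, Trpc6 −0.0025 in the interaction and Dsp −0.043, C1ql2 0.088 in the average of EE against SH. Without libraries 12 and 14, the reversed values were C1ql2 −0.022 in WT EE against WT SH, C1ql2 0.087, Lct 0.084 in WT SH against KD SH and Lct −0.10, Calb1 0.013 in the interaction. With the thalamus score as a covariate, the reversed values were Prox1 −0.043, C1ql2 −0.028 in WT EE against WT SH, C1ql2 0.088, Lct 0.10, Stxbp6 0.032 in WT SH against KD SH and Lct −0.10 in the interaction. Without libraries 5 and 12, the reversed values were Prox1 −0.0042 in WT EE against WT SH, Dsp −0.048 in KD EE against KD SH and Calb1 0.00019 in the interaction. As plain differences of mean log2 CPM, the reversed values were C1ql2 0.0072 in KD EE against KD SH and C1ql2 0.070, Lct 0.019 in WT SH against KD SH. When single libraries were left out, the values that turned ranged over Prox1 −0.054 to 0.082 in WT EE against WT SH, Dsp −0.057 to 0.14, C1ql2 −0.22 to 0.020 in KD EE against KD SH, Calb1 −0.075 to 0.030, C1ql2 −0.15 to 0.083, Lct −0.12 to 0.074, Stxbp6 −0.067 to 0.048 in WT SH against KD SH, Lct −0.16 to 0.049, Tdo2 −0.12 to 0.046, Calb1 −0.11 to 0.029, Dsp −0.051 to 0.17, Trpc6 −0.026 to 0.15 in WT EE against KD EE, Lct −0.15 to 0.11, Calb1 −0.083 to 0.056 in the interaction and C1ql2 −0.074 to 0.045 in the average of EE against SH.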

Other observations

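In 33B (WT EE), Prox1 was at 125 CPM, C1ql2 at 91.4 CPM, Stxbp6 at 103 CPM, Calb1 at 85.3 CPM, Dsp at 52.4 CPM, Lct at 43.0 CPM and Tdo2 at 5.43 CPM, with 35.6% of the fragments outside genes and 18.5% ambiguous between genes. In 34B (KD EE), which held 16442 counts on genes, the counts were 4 for Stxbp6, 3 for Calb1, 1 for Dsp and 0 for the 5 other genes, and the floor of 3 counts stood for 182 CPM, above the highest level of any of the 8 genes in the other libraries.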
